A study of Mus musculus with 8 samples.

Results

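Potassium channel subunits were examined in the retinas of Lpcat1 knockout (KO) and wildtype (WT) mice. Every gene was taken whose RefSeq symbol begins with Kcn and that the array covered, except Kcnj10, which gave 94 of the 20018 genes named on the array (127 of 55681 probes). Of these, 92 are protein-coding and 2 are non-coding RNAs (Kcnq1ot1 and Kcnmb4os1), and each gene was represented by its probe with the highest mean level over all 8 arrays. Lpcat1 encodes lysophosphatidylcholine acyltransferase 1, which makes phosphatidylcholine carrying saturated fatty acids, and the study asked how its loss changes transcripts in the retina. Total RNA of the whole retina was measured in 4 WT and 4 KO samples at 2 weeks of age, with strain given as C57BL/6 for both genotypes. The knockout is present in all cells of the mouse. It was made on a C57BL6/N background and crossed to C57BL6/J to remove the rd8 mutation of Crb1, and no mouse used was homozygous for rd8. Nothing in the labels says that the 4 samples of a genotype came from separate mice, so p-values measure only the spread between these samples.

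Potassium channels set the resting potential of a cell and end its depolarisation. In photoreceptors they carry the outward part of the dark current. In bipolar, amacrine and ganglion cells they shape graded signals and spikes, and in Müller glia they clear potassium released by active neurons. A voltage-gated channel is a tetramer of pore-forming subunits, joined by silent subunits that form no channel alone and by auxiliary proteins, so the mix of subunits sets how a cell responds.

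Levels are given as log2 of the signal over the array's own 75th percentile, and differences are KO minus WT on that scale with the standard error (SE) of limma and the Benjamini-Hochberg adjusted p over all 33972 tested probes. Only probes that the extraction software marked as well above background in every array of WT, of KO or of both were tested, and a probe was called when its adjusted p was under 0.05 and its fold change over 1.2. Between 33113 and 36373 probes per array were well above background, and 0 spots were saturated. The genotypes occupied separate rows of a single slide, and row and genotype therefore cannot be told apart. The level of Lpcat1 itself was -0.41 ± 0.03 in WT and -0.87 ± 0.06 in KO (SD, n = 4 each), with no overlap and a difference of -0.46 (limma adjusted p = 0.0036). A signal thus remained in KO, and the position of that probe relative to the deleted part was not settled.

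Of the 94 subunit genes, 75 were tested and 73 of them were well above background on all 8 arrays. Another 13 were not well above background on any array, and 6 were so on some arrays only. The 13 were Kcna10, Kcne1, Kcne4, Kcng3, Kcnj1, Kcnk2, Kcnk5, Kcnk7, Kcnk18, Kcnmb1, Kcnn1, Kcnq5 and Kcnv1. The 6 included Kcnj2, Kcnj16, Kcnmb4os1, Kcnn3 and Kcnn4. Of these, Kcnn3, a calcium-activated small-conductance channel, was above background on 3 WT arrays and 0 KO arrays, and Kcnn4 on 3 WT arrays and 1 KO array.

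The subunits were mostly slightly higher in KO. Differences ran from -0.58 (Kcnt2, mostly at background in KO) to 0.54, with a median of 0.12 against -0.02 over the 14937 named genes tested, and 56 of 75 (74.7%) were above 0 against 42.2% of named genes. Limma called 5 subunits, all higher in KO: Kcnc1, Kcnc2, Kcnj4, Kcnk6 and Kcns3. That was 6.67% of those tested, against 3.47% of all named genes (1.99% called higher and 1.49% called lower) and 2.92% of all tested probes. At an adjusted p under 0.05 with no fold limit there were 12 (16.0%, against 6.62%), of which 11 were higher (14.7%, against 3.3%) and 1, Kcnv2, was lower (1.33%, against 3.32%). An unadjusted p under 0.05 was reached by 36 subunits (48.0%, against 26.2%). The genotypes did not overlap for 29 subunits (38.7%, against 21.2%). All 4 KO values lay above all 4 WT values for 27 of them (36.0%, against 8.78%) and below for 2 (2.67%, against 12.4%). These shares describe the group without a test of it.

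**Figure D1:**
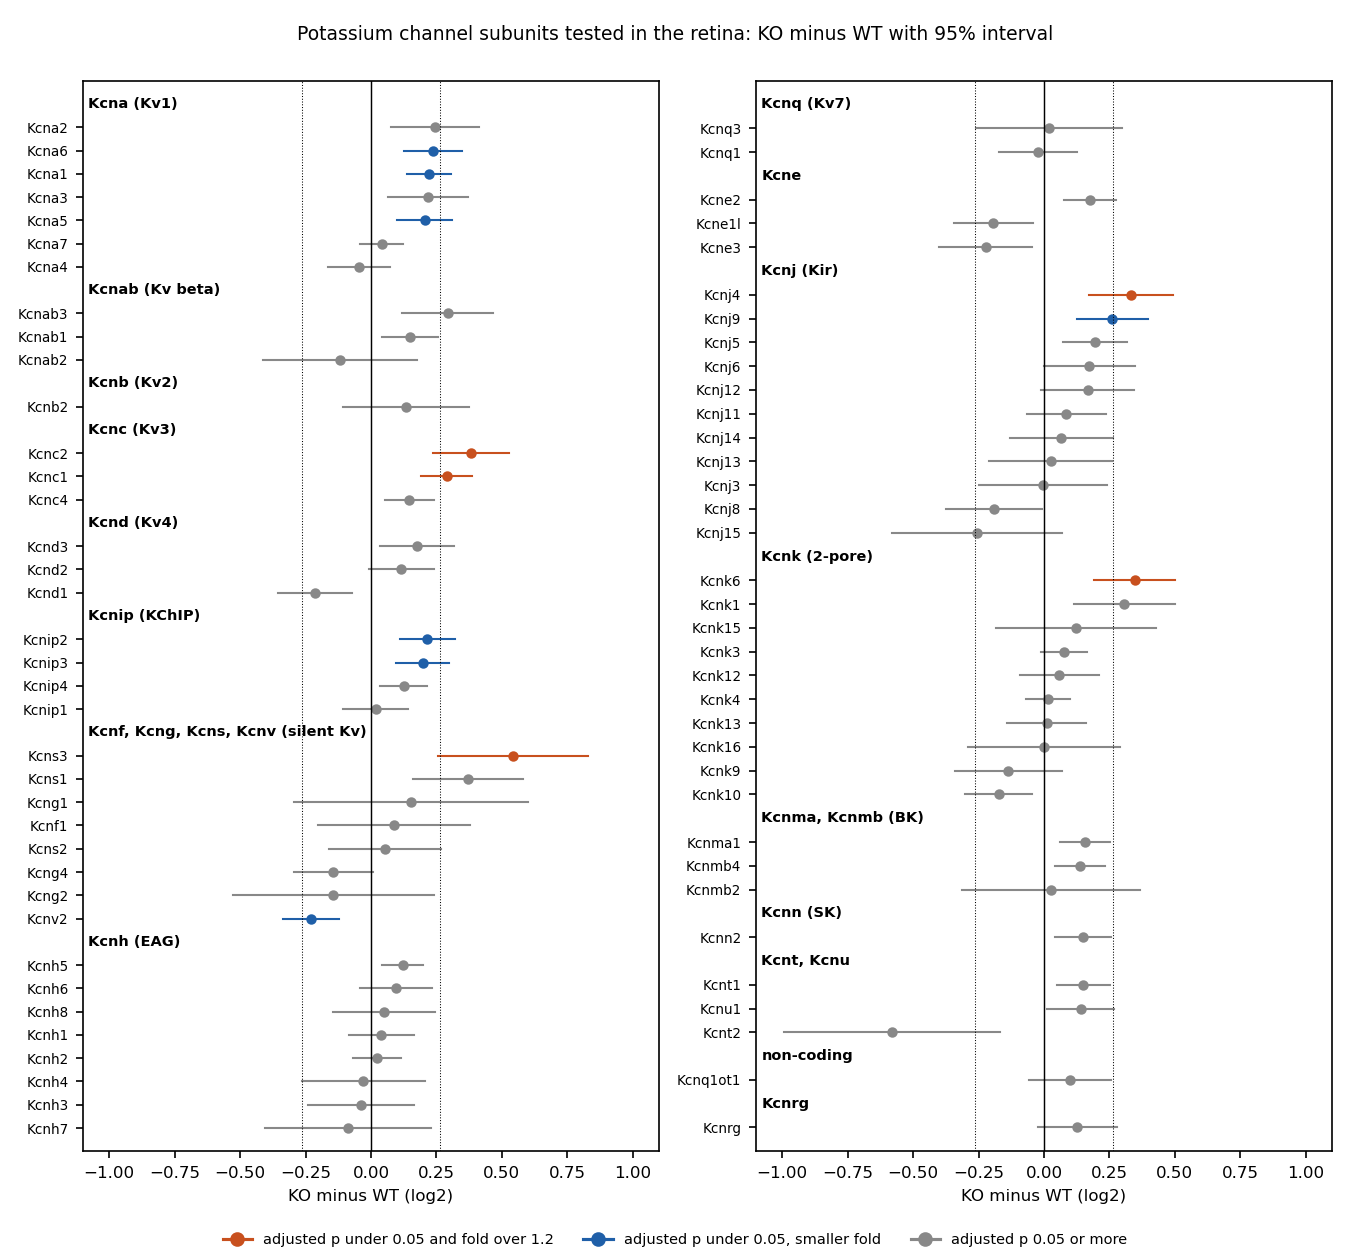
KO minus WT on the log2 scale (horizontal axes) for 72 of the 75 subunits tested, grouped by subfamily, with bars for limma's 95% interval, a solid line at 0 and dotted lines at a fold change of 1.2. Most points lie right of 0, the 5 called genes (orange) are all on that side, and Kcnv2 is the only subunit left of 0 with an adjusted p under 0.05.

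The higher share was not limited to dim probes. When named genes were split into 4 equal bins by mean level over all arrays, the subunits' median difference was 0.03, 0.12, 0.15 and 0.15 from the dimmest to the brightest bin (31, 20, 14 and 10 subunits). The median of all named genes in the same bins lay between -0.04 and 0.00. Among genes above the median level, 21 of 24 subunits were higher in KO, against 37.5% of 7468 named genes.

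In the Kv3 subfamily (Kcnc), Kcnc1 and Kcnc2 rose. Kv3 channels open at strongly depolarised potentials and close fast, which lets neurons such as starburst amacrine and ganglion cells repolarise quickly. The level of Kcnc1 was 1.67, 1.59, 1.59 and 1.54 in WT replicates 1 to 4 and 1.83, 1.93, 1.87 and 1.91 in KO. Every KO retina was above every WT retina. The difference was 0.29 (SE 0.04, 95% interval 0.19 to 0.39, limma adjusted p = 0.0144), an increase of 22.2%. Kcnc1 had 2 further probes, which differed by 0.29 (adjusted p = 0.0154, called) and by 0.25 (adjusted p = 0.0348, below the fold limit), so its probes moved alike. Kcnc2 was at -0.13, 0.03, 0.05 and 0.01 in WT and at 0.24, 0.41, 0.37 and 0.48 in KO, again without overlap. Its difference was 0.38 (SE 0.06, 95% interval 0.24 to 0.53, limma adjusted p = 0.0194), or 30.4%. The call of Kcnc1 was lost without WT replicate 2 (adjusted p = 0.0527) and in a fit with the replicate number as a block, and that of Kcnc2 without WT replicate 2 or KO replicate 2, 3 or 4 (adjusted p up to 0.0616).

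Kcnc4, another Kv3 gene, differed by 0.15 (SE 0.04, adjusted p = 0.0778) with no overlap between genotypes. All 4 Kv3 genes were above 0, with a median of 0.22, and Kcnc1 and Kcnc2 were the only ones called (1.99% of all named genes were called higher).

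The start-site windows of the Kv3 pair that rose are shown because the study followed immediate early transcription factors, whose binding motifs can be searched there. The sequences come from RefSeq (GRCm38.p6) and run from 250 bases before the annotated start to 50 bases after it, read 5′ to 3′ on the gene's strand. Kcnc1 lies on the plus strand of chromosome 7 (chr7:46396218-46396517). The Kcnc2 window, the most upstream of its 4, lies on the plus strand of chromosome 10 (chr10:112269767-112270066). The window shown for Kcnip3, a Kv4 partner described with those channels, is 1 of its 3, lies on the minus strand of chromosome 2 (chr2:127522045-127522344) and is shown for its AP-1 match, in capitals.
Kcnc1: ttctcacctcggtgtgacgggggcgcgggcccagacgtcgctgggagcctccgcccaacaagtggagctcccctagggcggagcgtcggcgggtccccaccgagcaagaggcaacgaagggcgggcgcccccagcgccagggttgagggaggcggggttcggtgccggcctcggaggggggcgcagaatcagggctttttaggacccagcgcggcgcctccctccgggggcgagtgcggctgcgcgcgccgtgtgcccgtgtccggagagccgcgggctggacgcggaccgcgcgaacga
Kcnc2: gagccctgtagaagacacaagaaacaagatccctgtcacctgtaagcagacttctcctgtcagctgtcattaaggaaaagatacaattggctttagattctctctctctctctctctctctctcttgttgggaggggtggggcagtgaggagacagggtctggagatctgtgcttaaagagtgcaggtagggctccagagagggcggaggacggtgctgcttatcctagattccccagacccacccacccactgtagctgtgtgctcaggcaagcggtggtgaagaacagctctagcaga
Kcnip3: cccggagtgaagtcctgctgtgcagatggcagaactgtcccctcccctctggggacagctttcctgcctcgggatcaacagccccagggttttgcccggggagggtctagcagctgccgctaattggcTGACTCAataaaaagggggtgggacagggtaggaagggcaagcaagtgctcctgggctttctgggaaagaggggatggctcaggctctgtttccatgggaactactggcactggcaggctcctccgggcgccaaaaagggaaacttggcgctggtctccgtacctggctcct

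The 2 Kv3 windows differ in composition, with 74.7% G and C in Kcnc1 and 52.7% in Kcnc2. Motifs were searched on both strands. TGANTCA, the AP-1 motif bound by Fos and Jun proteins, was in 7.81% of all 32851 RefSeq windows. It was in 4 of the 93 windows of subunit genes, 1 each in 4 of the 68 genes that had a window (Kcne3, Kcnip3, Kcnip4 and Kcnk2). TGACGTCA, the cyclic AMP response element, was in 1.79% of windows and GCGTGGGCG, the Egr motif, in 0.612%, and neither was in any of the 93 subunit windows (0 of 93). Among the 12 subunits with an adjusted p under 0.05, 9 had a window, and Kcnip3 alone held a motif, starting 122 bases upstream of its start. These matches describe letters in the windows only.

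Of the 7 Kv1 genes (Kcna) tested, 0 were called, and 3 were higher at an adjusted p under 0.05 (3.3% of all named genes were). Kv1 channels open at low voltages and sit at axon initial segments and along axons, where they set spike threshold. The level of Kcna1 was 1.44, 1.45, 1.46 and 1.43 in WT and 1.61, 1.70, 1.69 and 1.66 in KO. The WT values spanned less than the gap between the genotypes, and the difference was 0.22 (SE 0.04, limma adjusted p = 0.0191), which is under the fold limit. Kcna6 was at 3.62, 3.66, 3.62 and 3.58 in WT and at 3.79, 3.95, 3.78 and 3.89 in KO. Its groups did not overlap either (difference 0.24, SE 0.05, adjusted p = 0.0341). For Kcna5 the levels were 0.81, 0.81, 0.86 and 0.83 in WT against 1.06, 1.09, 1.06 and 0.92 in KO, a difference of 0.21 (SE 0.05, adjusted p = 0.042). The second probes of Kcna5 and Kcna6, both dimmer, differed by 0.06 (adjusted p = 0.499 and 0.675), so probes of these genes disagree in size.

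Kcna2 and Kcna3 differed by about as much without reaching the threshold. The difference was 0.25 for Kcna2 (SE 0.07, adjusted p = 0.0898) and 0.22 for Kcna3 (SE 0.07, adjusted p = 0.093), each with no overlap. Kcna7 (0.04) and Kcna4 (-0.05) overlapped between genotypes. In all, 6 of the 7 Kv1 genes tested were above 0, with a median of 0.22. Of the beta subunits that bind Kv1 channels, Kcnab3 differed by 0.29 (SE 0.08, adjusted p = 0.0614, no overlap). Kcnab1 differed by 0.15 (adjusted p = 0.10) and Kcnab2 by -0.12 (adjusted p = 0.62).

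**Figure D2:**
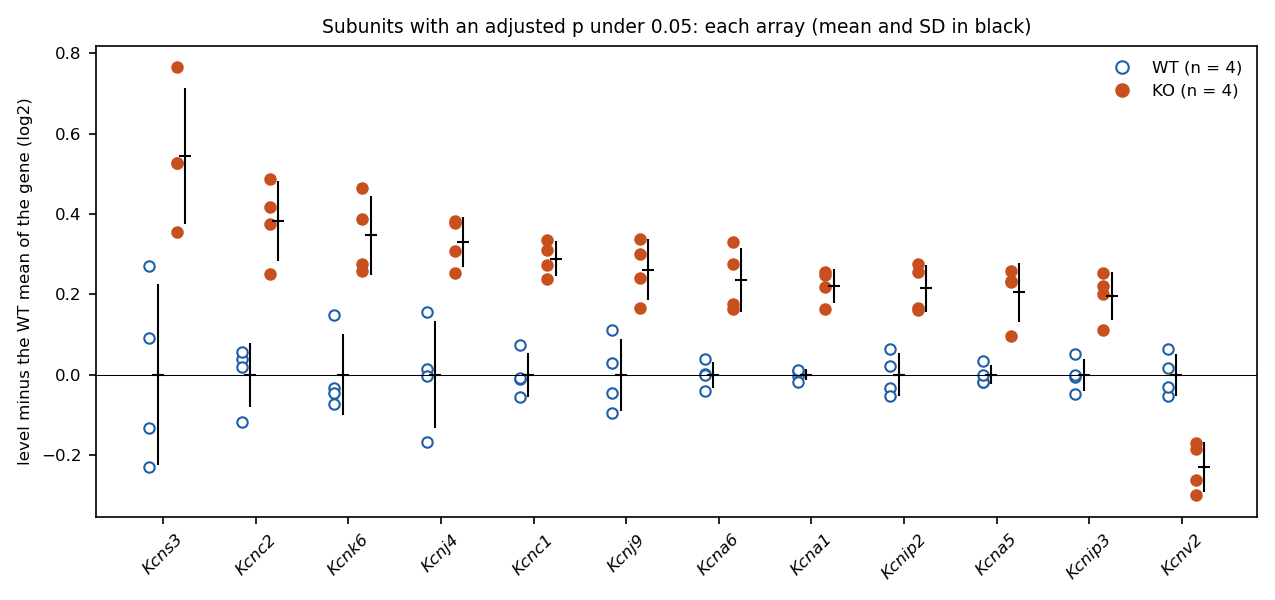
Levels of the 12 subunits with an adjusted p under 0.05 on each array, as log2 level minus the WT mean of the same gene, with open circles for WT, filled circles for KO (n = 4 each, some circles coincide) and black bars for the mean and SD. The 4 KO arrays lie above the 4 WT arrays for 11 genes, from Kcns3 (mean difference 0.54) to Kcnip3 (0.20), and below them for Kcnv2 (-0.23).

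Among the silent subunits, which form no channel of their own and modify Kv2 channels, Kcns3 and Kcnv2 differed in opposite directions. Kcns3 was at -3.67, -3.45, -3.26 and -3.77 in WT and at -3.01, -2.77, -3.01 and -3.18 in KO. Its spread was the widest of the called subunits. The difference was 0.54 (SE 0.12, 95% interval 0.26 to 0.83, limma adjusted p = 0.046), or 45.8%. The signals behind it were low, from 51.8 to 72.1 for WT and from 74.5 to 108 for KO, where the lowest signal well above background was 18.1 to 28.1 per array. When 1 array was left out, the call of Kcns3 was kept without WT replicate 3 and lost without any of the other 7 (adjusted p up to 0.107, without KO replicate 2), and normexp background correction brought the difference to 0.27. Kcns1 was dimmer still (signals of 27.6 to 47.6) and differed by 0.37 with no overlap (SE 0.09, adjusted p = 0.0541). Its WT replicate 1, at -4.60, lay apart from the other WT arrays at -4.32 to -4.30, and without it the difference was 0.30.

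Kcnv2 joins Kv2 channels in photoreceptors, where the joint channel shapes the light response, and loss of KCNV2 in people causes a cone dystrophy with altered rod responses. The level of Kcnv2 was 4.31, 4.33, 4.37 and 4.42 in WT and 4.17, 4.10, 4.19 and 4.06 in KO. All KO values lay below all WT values. The difference was -0.23 (SE 0.05, 95% interval -0.34 to -0.12, limma adjusted p = 0.034), or -14.7%, under the fold limit. The adjusted p stayed under 0.05 when KO replicate 1 was left out (0.0434) and was 0.0567 to 0.0929 when any other array was.

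The other silent subunits tested were not called. Kcnf1 (0.09), Kcng1 (0.15) and Kcns2 (0.05) overlapped between genotypes, as did Kcng4 (-0.14, adjusted p = 0.229). The 2 probes of Kcng2 had opposite signs, -0.14 and 0.48, with neither called. Kcnb2, a Kv2 pore subunit, differed by 0.13 (adjusted p = 0.48).

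Kv4 channels (Kcnd) carry the A-type current that delays firing, and the KChIP proteins (Kcnip) bind them and tune their traffic and gating. The pore subunits differed in sign. Kcnd3 (0.18) and Kcnd2 (0.12) were above 0, and Kcnd1 differed by -0.21 (SE 0.06, adjusted p = 0.0837), where KO replicate 4 and WT replicate 4 had about the same level. With normexp background correction Kcnd1 was called lower. All 4 KChIP genes were above 0. Kcnip2 was at -1.11, -1.02, -1.06 and -1.13 in WT and at -0.92, -0.91, -0.80 and -0.82 in KO (difference 0.22, SE 0.05, limma adjusted p = 0.0391). Kcnip3, a KChIP that also acts as a calcium-dependent repressor of transcription, was at 3.90, 3.95, 3.95 and 4.00 in WT and at 4.06, 4.17, 4.15 and 4.20 in KO. Its difference was 0.20 (SE 0.04, adjusted p = 0.0421), while its second, much dimmer probe differed by -0.16 (adjusted p = 0.608). Kcnip4 differed by 0.13 (adjusted p = 0.0977, no overlap) and Kcnip1 by 0.02.

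Inward rectifiers (Kcnj) pass potassium near the resting potential. Kcnj4, a strong inward rectifier, rose. Its level was -3.69, -3.51, -3.52 and -3.36 in WT and -3.14, -3.14, -3.21 and -3.27 in KO, with no overlap. The difference was 0.33 (SE 0.07, 95% interval 0.17 to 0.49, limma adjusted p = 0.0382), or 25.8%, at signals of 51.9 to 83.6. With 1 array left out, the call was kept without WT replicate 4 and lost without any of the other 7 (adjusted p up to 0.10, without KO replicate 2), and with normexp background correction the difference was 0.19. Kcnj9, a subunit of the channels opened by G protein βγ, lay at the fold limit, with levels between 1.08 and 1.29 in WT and between 1.34 and 1.51 in KO. Its groups were apart by a small gap (difference 0.26, SE 0.06, adjusted p = 0.0444).

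The G protein-gated partners of Kcnj9 ran from no difference to a similar one. Kcnj5 differed by 0.19 (SE 0.05, adjusted p = 0.0707, no overlap), Kcnj6 by 0.17 (adjusted p = 0.211) and Kcnj3 by 0.00 (adjusted p = 0.988). Kcnj12, a strong rectifier, differed by 0.17 (adjusted p = 0.236). Of the pore subunits of ATP-sensitive channels, Kcnj11 differed by 0.08 (adjusted p = 0.477) and by -0.24 at its second probe (adjusted p = 0.236). Kcnj15 was above background on 4 WT and 3 KO arrays and differed by -0.25 (adjusted p = 0.32). In the subfamily, 8 of 11 tested genes were above 0 and the median was 0.08.

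The two-pore channels (Kcnk) carry background potassium current. Kcnk6, a background channel known as a route of potassium efflux in activated macrophages, rose. It was at -3.13, -3.09, -2.91 and -3.10 in WT and at -2.78, -2.67, -2.59 and -2.80 in KO, without overlap. The difference was 0.35 (SE 0.07, 95% interval 0.19 to 0.50, limma adjusted p = 0.0306), or 27.2%. Its call held without WT replicate 3 or KO replicate 1 and was lost without any of the other 6 arrays (adjusted p up to 0.0879, without WT replicate 2), and with normexp background correction its difference of 0.25 was under the fold limit. Kcnk1, of the same TWIK family, differed by 0.31 with no overlap (SE 0.08, adjusted p = 0.0727). Kcnk10, a channel opened by stretch and polyunsaturated lipids, was at -1.54, -1.58, -1.52 and -1.63 in WT and at -1.79, -1.64, -1.68 and -1.85 in KO. It is the second subunit with every KO value below every WT value, but by a small gap (difference -0.17, SE 0.06, adjusted p = 0.107). The remaining 7 overlapped between genotypes, with differences of -0.14 (Kcnk9) to 0.12 (Kcnk15).

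Of the calcium- and sodium-activated channels and their relatives, 3 of 4 Kcnm genes, 1 of 4 Kcnn genes and all 3 Kcnt and Kcnu genes were tested. Kcnma1, the pore of the large-conductance calcium-activated channel, differed by 0.16 (SE 0.04, adjusted p = 0.0646), and Kcnmb4, its beta subunit in neurons, by 0.14 (SE 0.04, adjusted p = 0.0917). Both were without overlap, and neither passed the threshold. Kcnn2, a small-conductance channel that follows spikes, differed by 0.15 (adjusted p = 0.10), and the sodium-activated Kcnt1 by 0.15 (adjusted p = 0.0829). Kcnt2 differed by -0.58 (SE 0.18, adjusted p = 0.0971). It was well above background on 4 WT arrays but on only 1 KO array, and it was tested only through WT, so most of its KO values lay at the background and the size of its difference is not settled. Its signal ranged between 24.0 and 33.4 in WT and between 14.3 and 24.0 in KO. It passed the threshold when KO replicate 1, the KO array on which it was highest, was left out (adjusted p = 0.0438). The related channel Kcnu1 (0.14, adjusted p = 0.173) and the beta subunit Kcnmb2 (0.03, adjusted p = 0.929) overlapped between genotypes.

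The remaining families showed little. Of the 8 EAG-related genes (Kcnh), 5 were above 0, the median was 0.03, and Kcnh5 alone was without overlap (difference 0.12, adjusted p = 0.076). Of the Kv7 genes (Kcnq), which carry the slow current that damps repeated firing, Kcnq3 (0.02) and Kcnq1 (-0.02) overlapped between genotypes. Of the small auxiliary Kcne subunits, Kcne2 differed by 0.18 with no overlap (SE 0.04, adjusted p = 0.0551) and Kcne3 by -0.22 (adjusted p = 0.127). Kcne1l, also known as Kcne5, differed by -0.19 at its brighter probe (SE 0.07, adjusted p = 0.122). Its second probe was called lower, at -0.32 (SE 0.07, adjusted p = 0.0421), which makes it the one gene with a probe called lower in KO. Kcnrg, a regulator of Kv1 assembly, differed by 0.13 (adjusted p = 0.288). The non-coding RNA Kcnq1ot1, transcribed antisense to Kcnq1, differed by 0.10 (adjusted p = 0.423). Of the 23 subunits with more than 1 tested probe, the probes had the same sign in 17 and opposite signs in 6.

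The subunits were then grouped by the retinal cell type they are known from, without a test between the groups. Over all named genes, 1.99% were called higher and 3.3% were higher at an adjusted p under 0.05. In bulk retina, fewer cells of a type and less RNA per cell cannot be told apart. Against heterozygous littermates, the study found more photoreceptor apoptosis and a thinner photoreceptor nuclear layer in KO at a younger age than here. The part of that loss in these values was not tested. Among 5 photoreceptor subunits the median was 0.07. Kcnv2 was lower, Kcne2 did not overlap between genotypes (0.18, not past the threshold), and Kcnj14 (0.07) and Kcnh1 (0.04) differed by less than their spread. Among 5 subunits of bipolar and amacrine cells the median was 0.16, with Kcnc1 and Kcnc2 called and Kcng4 below 0 (-0.14). Among 7 of ganglion cells it was 0.22, with Kcna1, Kcna6 and Kcnip2 past an adjusted p of 0.05 and Kcnab2 below 0 (-0.12). Several of these genes are used by more than one class of neuron, so the lists are not exclusive.

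Subunits of glia and support cells were fewer. Of 5 Müller glia subunits only Kcnk3 (0.08, adjusted p = 0.27) and Kcnj13 (0.02, adjusted p = 0.906) were tested. Kcnj10, the main channel of Müller cells and outside this gene set, was called higher at 0.31 (SE 0.05, limma adjusted p = 0.0155). Of 5 microglial subunits, 3 were tested: Kcnk6 (0.35) was called, Kcna3 (0.22) did not overlap between genotypes, and Kcnk13 (0.01), the resting conductance of microglia, overlapped. Kcnj8, which marks pericytes, differed by -0.19 (adjusted p = 0.194), with KO replicate 3 at -2.44 and the other KO arrays at -2.75 to -2.72. The pigment epithelium channel Kcnj13 and its list partner Kcne2 had a median of 0.10.

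**Figure D3:**
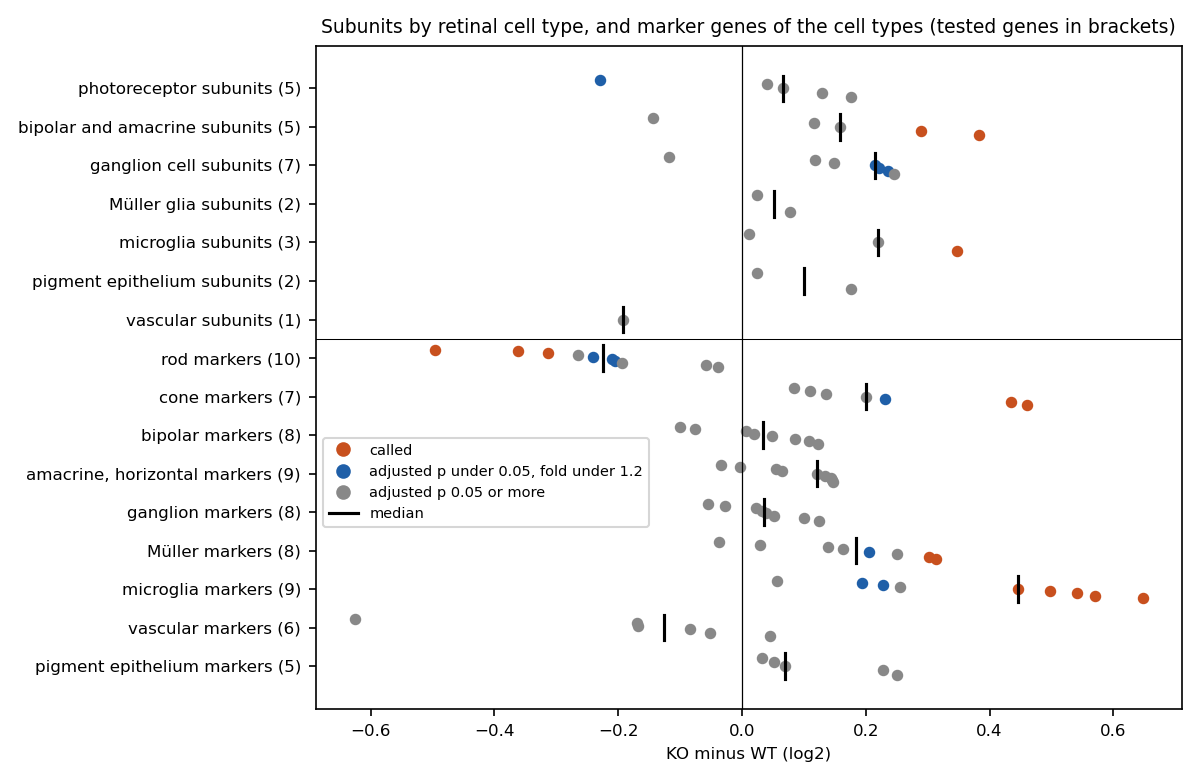
KO minus WT on the log2 scale for tested subunits listed by retinal cell type (above the line) and for marker genes of the same cell types (below it), with 1 point per gene, the number of genes in brackets and a black bar at the median. Ganglion cell, bipolar and amacrine subunits lie mostly right of 0, rod markers lie left of it with a median of -0.23, and microglia markers lie right of it with a median of 0.45.

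Marker genes of several cell types moved with the genotype. Over all named genes, 1.99% were called higher, 1.49% were called lower and 42.2% were above 0. All 10 rod markers were below 0 (median -0.23, 3 called lower), and their summed signal, in units of each array's 75th percentile, was 1982 to 2053 in WT and 1615 to 1786 in KO. All 7 cone markers were above 0 (median 0.20, 2 called, sums of 180 to 185 and 206 to 215). All 9 microglia markers were above 0 (median 0.45, 5 called, sums of 9.93 to 10.67 and 12.9 to 13.2). Of 8 Müller markers, 7 were above 0 (median 0.18, 2 called, sums of 255 to 267 and 302 to 306). The 2 called were Clu and Kcnj10, the channel described above, so this list is not separate from it. Amacrine and horizontal markers had a median of 0.12 with 7 of 9 above 0 and 0 called (sums of 84.3 to 87.4 and 92.5 to 95.2). Ganglion cell markers had 0.04 with 6 of 8 above 0 and 0 called (sums of 160 to 162 and 163 to 170), and bipolar markers 0.03 with 6 of 8 above 0 and 0 called (sums of 246 to 276 and 259 to 275). Vascular markers had -0.13 with 5 of 6 below 0 and 0 called, and pigment epithelium markers 0.07 with 5 of 5 tested above 0 and 0 called. Of these 71 marker genes only 1, on the pigment epithelium list, was not tested. The part of these shifts in the subunit differences was not tested.

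Other genes of potassium handling, namely ion pumps, cotransporters, channels that pass several cations and auxiliary or anchoring proteins, were compared as a list of 35 genes, of which 31 were tested. None was called (0 of 31, against 3.47% of named genes), and 1 was higher and 2 were lower at an adjusted p under 0.05 (against 6.62% of named genes in both directions), shares near the background. The median was 0.04. Of the rest, 3 were not above background and 1 was not named on the array. The 3 that passed were subunits of the cyclic nucleotide-gated channels of phototransduction. Cnga1 of rods was at 6.17 to 6.25 in WT and 5.94 to 6.00 in KO (difference -0.24, limma adjusted p = 0.020), and its rod partner Cngb1 differed by -0.23 (adjusted p = 0.0433). The cone subunit Cngb3 was higher by 0.18 (adjusted p = 0.0462). Cnga1, Cnga3 and Aqp4 of this list are also on the rod, cone and Müller marker lists, so it is not separate from those. Of the sodium pump subunits, which restore the potassium gradient, Atp1b3 differed by 0.15 (adjusted p = 0.0903) and Atp1b1 by 0.11 (adjusted p = 0.103), both without overlap. Atp1b2 differed by 0.00 (adjusted p = 0.978).

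Each of the 12 subunits with an adjusted p under 0.05 kept its sign under the other scalings and the normexp background correction. In the 8 runs that each left out 1 array a sign could not turn, because the genotypes did not overlap for any of the 12. The calls themselves depended on single arrays. With all arrays, a median shift ended the calls of Kcnj4, Kcnk6 and Kcns3, as did normexp. Taking the replicate number as a block ended those of Kcnc1, Kcnj4 and Kcns3. The methods' t-test ended those of Kcnj4 and Kcns3, and quantile normalization and trend and robust eBayes ended that of Kcnj4. Without a filter on dim probes 0 subunits were called. In the 8 runs 0 to 4 subunits were called higher, and all 5 calls were lost without WT replicate 2. Of the 6 genes that were higher below the fold limit, Kcna1, Kcna6, Kcnip2 and Kcnip3 kept an adjusted p under 0.05 in 1 run, without KO replicate 1, and had up to 0.0633, 0.0865, 0.0905 and 0.111 in the others. Kcna5 kept it in 1 run, without KO replicate 4 (up to 0.113 in the others), and Kcnj9 in 0 runs (up to 0.117). Over all probes those runs called 391 to 1182, against 992 with all arrays.

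**Figure D4:**
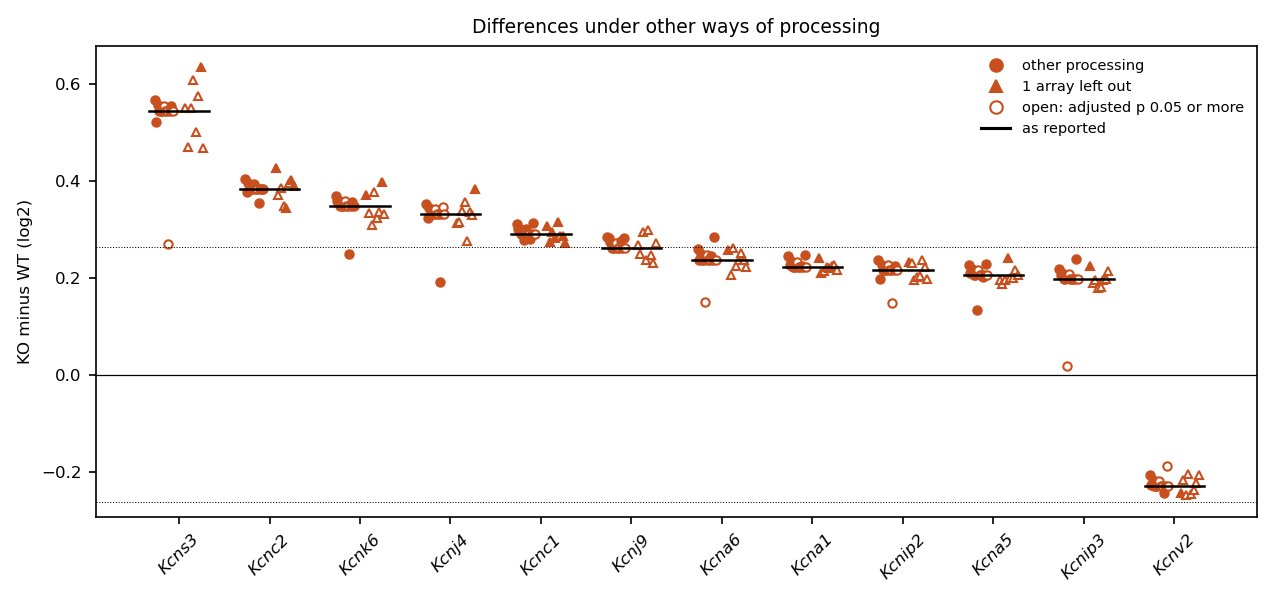
KO minus WT on the log2 scale for the 12 subunits with an adjusted p under 0.05, under other ways of processing (circles) and with 1 array left out (triangles), open where the adjusted p was 0.05 or more, with a bar at the value reported and dotted lines at a fold change of 1.2. No point crosses 0, which the triangles could not do because the genotypes of these subunits do not overlap. The point of Kcnip3 near 0 is the mean of its 2 probes. Kcnc1 has an open triangle in 1 of 8 runs, the fewest of the 5 called genes.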

How the data were processed

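Each sample was hybridised by the authors with Cy3 alone (1 colour) to a mouse array of the Agilent SurePrint G3 series, and Feature Extraction 10.7.1.1 (per the submitters' processing notes) gave background-subtracted intensity values on a linear scale, per the file headers. The authors shifted these to the 75th percentile in GeneSpring, and the deposited values of the whole series are on a log2 scale. Set against the levels computed here, they differed by a constant of 0.12 to 0.15 on each array (column medians -3.31 to -3.21), so they served only as an alternative. There was no unused per-sample column (0 columns).

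Here, log2 of the processed signal, less the 75th percentile of all non-control spots on that array, was tested with lmFit and eBayes of limma 3.58.1 (R 4.3.3), without covariates, with outlier spots left out, repeated spots averaged and Benjamini-Hochberg adjustment over 33972 probes. Depth on arrays is set by signal over background, and the 4 arrays per genotype limit the precision. Symbols came from RefSeq transcripts (26413 of 55681 probes, 47.4%). The members and the lists were chosen with earlier results of these data known. Named by rule were called members, the largest differences without overlap, members of the cell type lists, members whose probes disagree on the call, and members detected in 1 genotype only, which gave 32 genes. Other members were named after their values were seen, and some genes of the set and of the lists are not reported here. The fit was tested on simulated data. Alternatives were other scalings, background correction (normexp, offset 50, on median signals), filters, tests, thresholds, probe rules, the replicate number as a block and leaving out each array.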

Additional observations from a re-analysis of the deposited data

Results flagged for a closer look

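In 3 of the 64 groups of 4 arrays examined (32 named subunits in 2 genotypes), 1 array lay apart from the other 3 by more than Dixon's 95% critical value. Chance flags about 1 group in 20, so this number is near what chance gives. Kcns1 was at -4.60 in WT replicate 1 and at -4.32 to -4.30 in the other WT arrays. Kcnj14, an inward rectifier of photoreceptors, was at 3.93 in KO replicate 1 and at 4.23 to 4.25 in the other KO arrays. Kcnj8 was at -2.44 in KO replicate 3 and at -2.75 to -2.72 in the other KO arrays. The causes were not tested.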

How the results depend on the processing

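Several alternatives changed only the test, the filter or the threshold, so calls could change there while a sign could not turn. The counts below therefore do not compare how steady directions and calls are. Of 766 recomputed differences of named subunits, 693 kept their direction and their side of the threshold, 48 lost it, 17 gained it and 8 turned sign, all of genes that were never called: Kcnh1 (-0.020 with normexp) and, with 1 array left out, Kcnab2 (-0.18 to 0.0061, above 0 without WT replicate 2), Kcnj13 (-0.034 to 0.11, below 0 without WT replicate 4 or KO replicate 1 or 2) and Kcnk13 (-0.029 to 0.046, below 0 without WT replicate 2 or KO replicate 2 or 4). Against 5 subunits called higher, there were 2 with a median shift, 3 with normexp, 3 with the methods' t-test, 8 with array weights, 8 at an adjusted p under 0.5, 11 with no minimum fold, 0 at a fold over 1.5, 0 with no filter on dim probes (where 246 probes were called in all) and 0 to 4 with 1 array left out. Against 0 called lower, there was 1 with normexp (Kcnd1), array weights (Kcnt2), an adjusted p under 0.5 (Kcnt2), no minimum fold (Kcnv2) and any probe of a gene (Kcne1l), and 0 to 1 with 1 array left out. Against 11 higher at an adjusted p under 0.05, there were 2 with a median shift, 0 with no filter, 22 with trend and robust eBayes, 17 with array weights and 0 to 7 with 1 array left out. Against 1 lower, there were 0 with quantile normalization, a median shift or no filter, 2 with normexp, 3 with trend and robust eBayes, 2 with array weights and 0 to 2 with 1 array left out. When arrays were scaled to the 75th percentile of the probes well above background on each of them, 1 subunit instead of 2 was lower without overlap, and the median difference was 0.14 instead of 0.12. It was 0.088 with normexp and 0.084 to 0.12 with 1 array left out. The causes of these changes were not tested.

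The labels do not say whether a replicate number marks a shared litter or day. Same-numbered arrays correlated in their deviations by 0.25, 0.07, 0.04 and 0.11, not all above 0.1, so they were not treated as pairs, although each KO array correlated best with its own number, a hint of pairing from the data. With the number as a replicate block, 2 subunits were called higher (Kcnc2 and Kcnk6, with Kcnc1, Kcnj4 and Kcns3 no longer called), 2 were higher and 0 lower at an adjusted p under 0.05, and 395 probes were called in all.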
